A study of Mus musculus with 6 samples.

Results

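The genes described here encode enzymes of cholesterol and fatty acid synthesis and the SREBP proteins that control them, 33 genes in all, in tracheal epithelium 48 h after injury and in control epithelium. Every probe set whose array annotation gave 1 of these symbols and no other was a member, which gave 77 probe sets out of 34945 with 1 symbol, and 33 genes out of 18193. The sterol branch held 17 genes, the fatty acid branch 10 and the SREBP regulators 5, and Stard4, which encodes a sterol transfer protein, made up the rest. The 48 hpi group consisted of 3 pools from adult male C57Bl/6 mice that had breathed 500 ppm SO2 for 4 h and were sampled 48 h post injury (hpi), and the control group of 3 pools from normal mice of the same strain. Each pool held cells from 4 tracheas, and CD45+ leukocytes had been depleted before RNA extraction. Brief SO2 exposure kills luminal cells, after which basal cells spread and divide to rebuild the layer, and the comparison asks how the transcripts of these genes stood in the repairing epithelium. The values are RMA expression on a log2 scale from Affymetrix arrays, and the number of arrays limits the precision.

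Cholesterol is made from acetyl-CoA through mevalonate, isoprenoids, squalene and lanosterol, and fatty acids are made from the same precursor by carboxylation, chain building, elongation and desaturation. Both branches are transcribed under SREBP factors, which are held in the endoplasmic reticulum as precursors. Scap escorts them to the Golgi for cleavage when sterols are scarce, and Insig proteins hold Scap back when sterols are plentiful. Srebf2 encodes the factor known mainly for sterol genes and Srebf1 the one known mainly for fatty acid genes. Dividing cells need both products for new membranes.

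Sterol genes rose together at 48 hpi, fatty acid genes split, and 3 of the 5 regulators fell. A gene was called at an adjusted p below 0.05 from limma, with Benjamini-Hochberg adjustment over all genes and with the brightest probe set standing for the gene. In the sterol branch 15 of 17 genes were called higher and 0 lower (1 lower at an unadjusted p below 0.05, and 0 lower with the methods' t-test after adjustment). In the fatty acid branch 4 of 10 were higher and 2 were lower, and among the regulators 1 of 5 was higher and 3 were lower. Stard4 was higher as well. Over all 18193 genes, 36.9% were called, 19.4% higher and 17.5% lower. All 33 genes lay above background in both groups, which was set at the 95th percentile of 81 receptor probe sets (olfactory, vomeronasal and trace amine, 4.81 at 48 hpi and 4.93 in control), and among genes above background in a group 27.6% were higher and 23.4% lower. The 48 hpi pools did not overlap with the control pools and lay above them for 15 sterol and 5 fatty acid genes, against 25.4% of all genes, and lay below them for 0 sterol and 2 fatty acid genes, against 25.1% of all genes. The median log2 change, 48 hpi minus control, was 0.77 for the sterol branch, 0.18 for the fatty acid branch, −0.40 for the regulators and −0.02 for all genes. The difference between the branches was not tested.

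**Figure D1:**
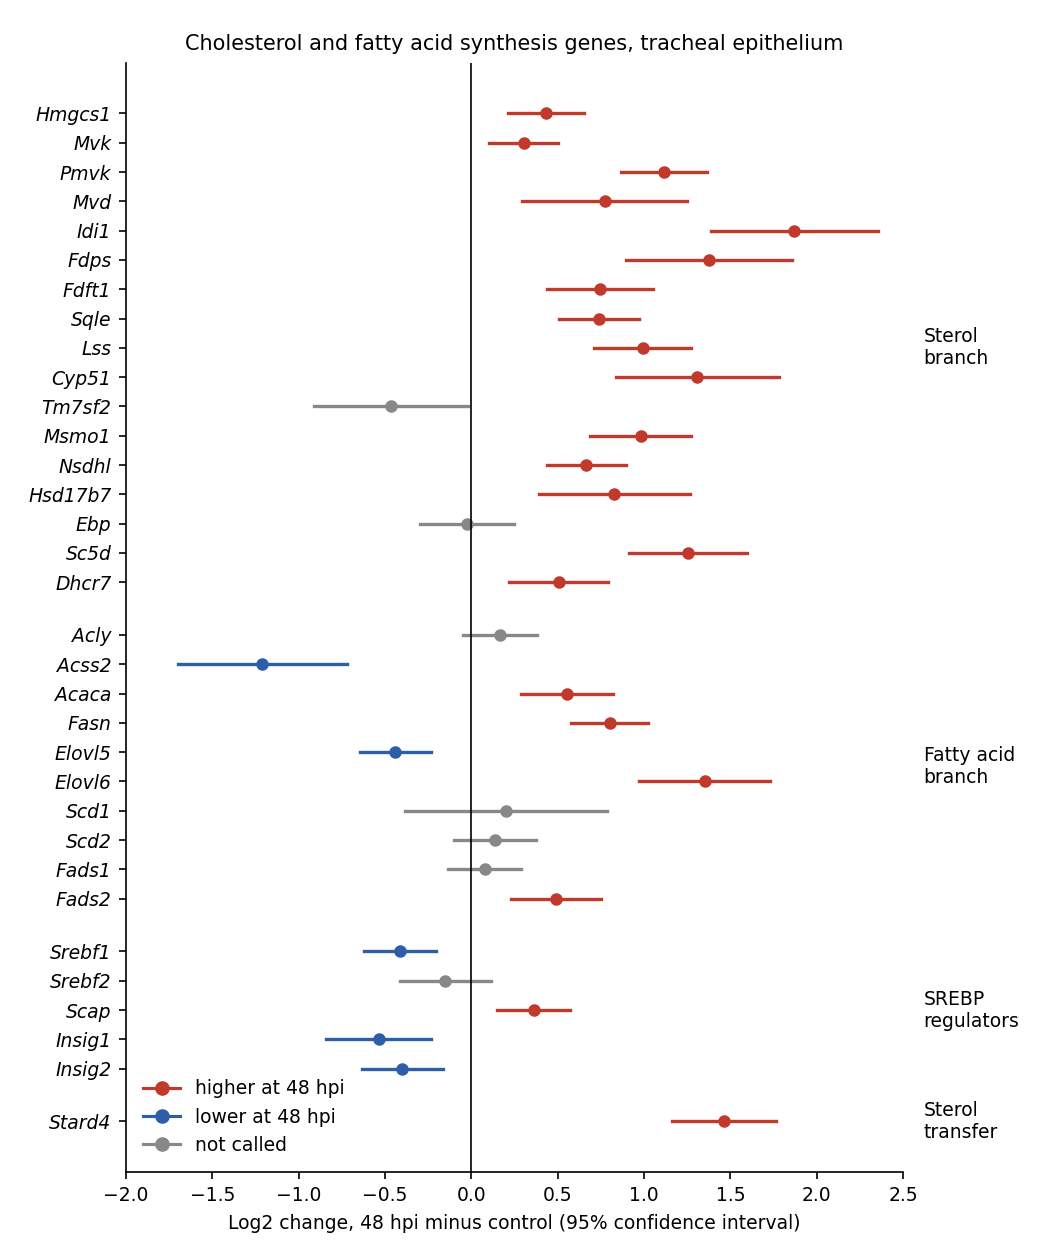
Log2 change, 48 hpi minus control, of the 33 genes with 95% confidence intervals from limma (3 pools against 3), with red for genes called higher, blue for genes called lower and grey for genes not called. In the sterol branch all intervals but those of Tm7sf2 and Ebp lie above 0, whereas the fatty acid branch runs from −1.21 for Acss2 to 1.35 for Elovl6.

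Not every enzyme of the sterol path is among the 17 genes, and the others were not analysed here. Among the 17, Idi1 had the largest rise. Idi1, the isomerase that makes the second isoprenoid building block, had 9.40, 9.21 and 9.53 in 48 hpi pools, against 7.83, 6.99 and 7.70 in control pools, a log2 change of 1.87 (SE 0.21, limma adjusted p = 0.00039). This was 3.66-fold, and every 48 hpi pool lay more than 1 unit above the highest control pool. Fdps, which joins these blocks into farnesyl diphosphate, had 9.12, 8.67 and 8.60 in 48 hpi pools and 7.72, 6.98 and 7.56 in control pools, a change of 1.38 (SE 0.21, limma adjusted p = 0.00148). Pmvk, the second kinase on mevalonate, had 7.75, 7.55 and 7.64 in 48 hpi pools and 6.68, 6.37 and 6.55 in control pools, a change of 1.12 (SE 0.11, limma adjusted p = 0.000201). Neither gene overlapped between the groups. Hmgcs1, the synthase that makes the HMG-CoA used for mevalonate, had a change of 0.43 (SE 0.10), Mvk, the first mevalonate kinase, 0.30 (SE 0.09) and Mvd, the decarboxylase, 0.77 (SE 0.21), and all of them were called higher. The other probe set of Mvd rose by 1.37 (SE 0.14). It is of a type that can bind transcripts of more than 1 gene, and its control level lay within background. With the mean of all probe sets the changes were 1.07 for Mvd and 0.74 for Fdps, both still called higher. On that measure Mvk had 0.20 and lost its call. The dimmer probe set of Mvk, above background in both groups, had 0.10 (SE 0.11) and was not called. The call of Mvk was lost without control replicate 1 or 3 or 48 hpi replicate 2 or 3, with changes of 0.27 to 0.30, and that of Mvd without control replicate 2 or 3 or 48 hpi replicate 1 or 3, with changes of 0.61 to 0.71.

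Past farnesyl diphosphate, the rises ran through squalene and lanosterol to the late steps. Fdft1, squalene synthase, and Sqle, the epoxidase that follows it, were both higher, by 0.75 (SE 0.13) and 0.74 (SE 0.10). The value of Fdft1 is from an x probe set. Its next probe set rose by 0.79 (SE 0.13), the dimmer ones had −0.05 (SE 0.09) and −0.10 (SE 0.13), and the mean of all of them gave 0.35, still called higher. Cyp51, which removes a methyl group from lanosterol, had 7.77, 7.85 and 7.95 in 48 hpi pools and 6.91, 6.04 and 6.70 in control pools, a change of 1.31 (SE 0.20, limma adjusted p = 0.00165). Lss, which closes the sterol rings, had 7.67, 7.72 and 8.08 in 48 hpi pools, against 6.89, 6.82 and 6.78 in control pools, with a change of 0.99 (SE 0.12, limma adjusted p = 0.000567). For Lss the value rests on a probe set of the s type, which can bind transcripts of more than 1 gene. The next brightest probe set of Lss, above background in both groups, had a change of −0.10 (SE 0.14), and the dimmest rose by 0.84 (SE 0.09), with a control level within background. Msmo1, the C4 methyl oxidase, had 8.2, 7.85 and 8.15 in 48 hpi pools and 7.19, 6.90 and 7.17 in control pools, a change of 0.98 (SE 0.13, limma adjusted p = 0.000724).

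Among the enzymes nearest to cholesterol, Sc5d had the largest rise. This desaturase had 7.70, 7.47 and 8.02 in 48 hpi pools and 6.65, 6.42 and 6.37 in control pools, a change of 1.25 (SE 0.15, limma adjusted p = 0.000487). With the mean of its 3 probe sets, of which the dimmer ones lay near background and were not called, the change was 0.29 and the call was lost. Hsd17b7, which reduces the C3 ketone, had 7.08, 7.09 and 7.74 in 48 hpi pools and 6.66, 6.25 and 6.53 in control pools, a change of 0.83 (SE 0.19, limma adjusted p = 0.0101). Its brightest probe set is of the x type, and of its dimmer ones above background 1, at 0.23 (SE 0.15), was not called and the other, at 0.41 (SE 0.14), was called higher. Nsdhl, which acts beside Msmo1, and Dhcr7, the reductase of the last step, rose by 0.67 (SE 0.10) and 0.51 (SE 0.12). The exceptions of the branch were Ebp, a sterol isomerase, with −0.02 (SE 0.12) and overlapping groups, and Tm7sf2, a sterol C14 reductase. Tm7sf2 had 5.87, 6.04 and 5.36 in 48 hpi pools and 6.30, 5.94 and 6.45 in control pools, a change of −0.47 (SE 0.19, limma adjusted p = 0.0977), and did not pass the test.

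Stard4, which carries sterols between membranes and is a known SREBP target, moved with the sterol genes. It had 8.14, 8.0 and 8.42 in 48 hpi pools and 6.68, 6.60 and 6.88 in control pools, a change of 1.46 (SE 0.13, limma adjusted p = 0.000142), or 2.76-fold. Both dimmer probe sets of Stard4 rose too, by 1.52 (SE 0.17) and 2.56 (SE 0.11). The dimmest had a control level within background, so the size of its rise rests on low values.

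**Figure D2:**
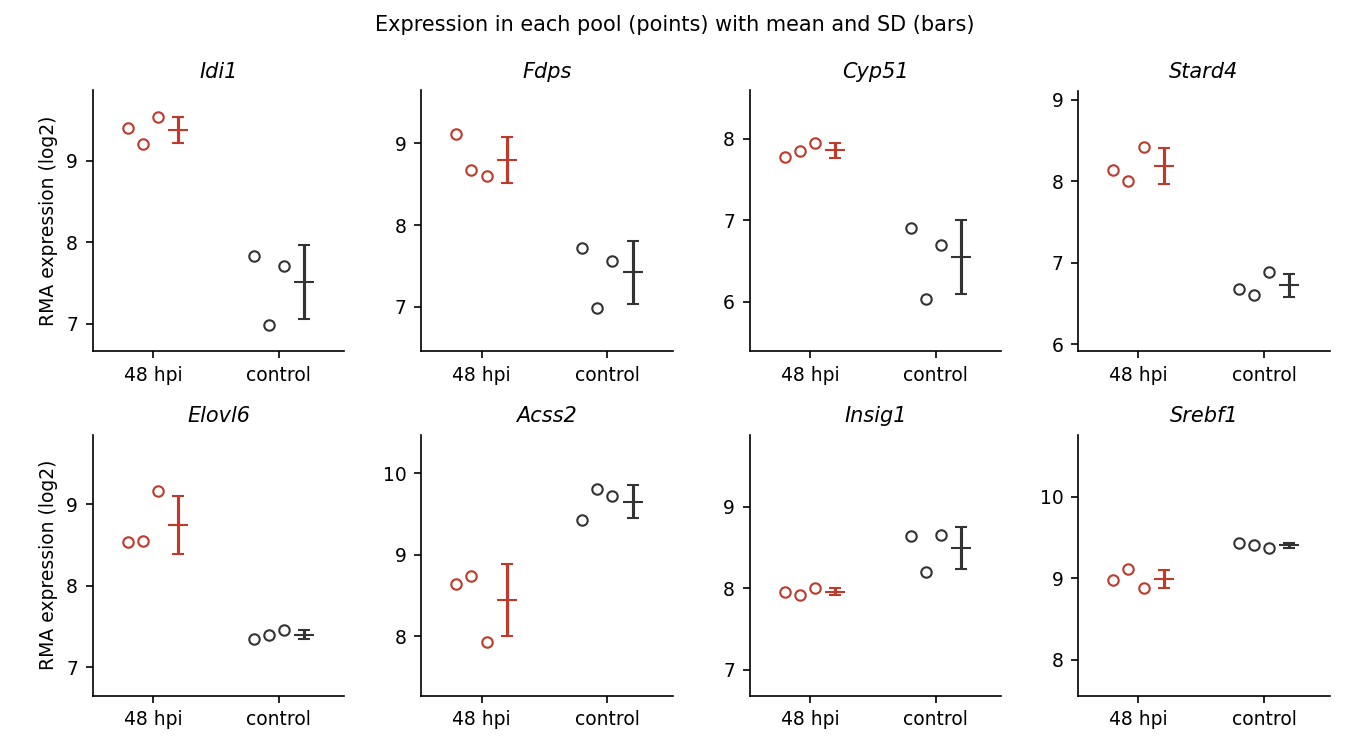
RMA expression (log2) of 8 genes in each pool of 48 hpi and control epithelium (points) and their mean ± SD (bars, n = 3 pools), every panel spanning the same 3.2 log2 units. The 48 hpi points of Idi1, Fdps, Cyp51, Stard4 and Elovl6 lie above, and those of Acss2, Insig1 and Srebf1 below, all control points.

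The sterol genes also differed among pools of 1 group. Control replicate 2 held the lowest control value for 13 of the 17 genes, against 30.0% of all genes, and control replicate 1 held the highest for 14 of 17, against 39.1% of all genes. At 48 hpi, replicate 3 held the highest value for 11 of 17, against 36.7% of all genes. Averaged over the 17 genes, each set against its own control mean, the 48 hpi pools lay at 0.80, 0.71 and 0.85 and the control pools at 0.17, −0.20 and 0.04. Cell type markers differed among the same pools. On the same measure the ciliated cell markers lay at −1.31, −1.22 and −1.96 in the 48 hpi pools and at −0.53, 0.49 and 0.03 in the control pools, and the secretory cell markers at −0.80, −0.72 and −1.72 in the 48 hpi pools and at −0.07, 0.04 and 0.03 in the control pools. The pools with the highest sterol average of their group thus had the lowest averages of both marker lists, and their part in the sterol values was not tested. In the average over the 17 sterol genes, the lowest 48 hpi pool was above the highest control pool by more than the spread within either group. This does not hold for each gene. Mvd had 5.93 in 48 hpi replicate 2 and 5.91 in control replicate 1, and the groups overlapped for Tm7sf2 and Ebp. Over all probe sets, 48 hpi replicate 3 correlated at 0.990 and 0.992 with the other 48 hpi pools, against 0.996 between these, and control replicate 1 at 0.993 and 0.992 with the other control pools, against 0.996 between these. Without 48 hpi replicate 3 the count of sterol genes called higher was 13, and leaving out any other array in turn gave 13 or 14.

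The promoters of the sterol genes were searched for the letters that SREBP and its partners are known to bind, since these genes moved together. RefSeq windows of GRCm38.p6, from 250 bases before to 50 bases after each annotated start, covered 26 of the 33 genes with 34 windows, and a gene counted where any of its windows held a match. CCAAT, the box bound by NF-Y, a factor known to act with SREBP, was read on both strands, as ATTGG on the other. It was present for 14 of 14 sterol genes with a window, 4 of 7 fatty acid genes and 4 of 5 regulators, against 42.4% of the genes above background and 41.1% of all genes with a window. Counted by window, 14 of 17 sterol and 5 of 10 regulator windows held the NF-Y box, against 37.2% of windows of genes above background. For Dhcr7 the window starting at 143829964 held it, and those starting at 143822917 and 143823149 did not. GGGCGG, the GC box bound by Sp1, was found for 13 of 14 sterol genes, 3 of 7 fatty acid genes and 5 of 5 regulators, against 67.6% of the genes above background. The E-box CACGTG was found for 3 of 14, 1 of 7 and 2 of 5, against 11.5%. A strict sterol regulatory element, TCACNCCAC on either strand, was found for 1 sterol gene, Hmgcs1, and for none of the fatty acid genes or regulators, against 1.42% of the genes above background. Known elements of this kind vary in their letters, so no match says only that these letters are not in the window. The NF-Y box is also present for Tm7sf2 and Ebp, which were not called higher. Among all genes called higher and lower at 48 hpi, 42.6% and 42.5% had it.

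The following stretches of 25 bases show, for the 14 sterol genes, the NF-Y box nearest to 60 bases before the start, on the strand of the gene and with the box in capitals. They are shown because each of these genes had the box in a window, and all lie before an annotated start of their gene.
Hmgcs1 (chr13:119690296-119690320, plus strand): cccgcctctcATTGGctgaaagcgg
Mvk (chr5:114444192-114444216, plus strand): tgaagttcccATTGGttaatgtttg
Pmvk (chr3:89454395-89454419, plus strand): ctcaggttggCCAATtcacagcatc
Mvd (chr8:122443468-122443492, minus strand): cctgtcgcctATTGGacagcacggg
Idi1 (chr13:8885551-8885575, plus strand): cctccagctgATTGGcgagcccggg
Lss (chr10:76531533-76531557, plus strand): tgatgctctgATTGGccgagctcgc
Cyp51 (chr5:4104712-4104736, minus strand): ctgtccgccaCCAATctggtcctga
Tm7sf2 (chr19:6067883-6067907, minus strand): cccagcgctgATTGGctactgtgct
Msmo1 (chr8:64733619-64733643, minus strand): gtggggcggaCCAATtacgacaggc
Nsdhl (chrX:72918491-72918515, plus strand): gactagcctcATTGGgcaaaatcat
Hsd17b7 (chr1:169969264-169969288, minus strand): ccgagtcgcgATTGGcgggcctaac
Ebp (chrX:8193553-8193577, minus strand): ccctgtactgATTGGttcgtcagat
Sc5d (chr9:42264310-42264334, minus strand): ccggctgctgATTGGccggctgcct
Dhcr7 (chr7:143830155-143830179, plus strand): tccacttccgATTGGtcgtctgtga

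The 250 bases before the start are shown in full for 4 genes, with the NF-Y box and the sterol regulatory element in capitals. Hmgcs1 holds the only such element among the 26 genes, 137 bases before the start, besides NF-Y boxes. Idi1 had the largest rise of the sterol branch. Elovl6, in the fatty acid branch, rose and holds no NF-Y box in this stretch, and Insig1 holds the box although its transcript fell, as given with the regulators.
Hmgcs1 (chr13:119690101-119690350, plus strand): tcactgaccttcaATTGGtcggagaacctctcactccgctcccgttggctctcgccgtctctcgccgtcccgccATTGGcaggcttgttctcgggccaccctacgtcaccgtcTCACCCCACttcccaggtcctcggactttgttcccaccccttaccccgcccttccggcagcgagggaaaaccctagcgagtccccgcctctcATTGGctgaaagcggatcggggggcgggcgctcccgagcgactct
Idi1 (chr13:8885356-8885605, plus strand): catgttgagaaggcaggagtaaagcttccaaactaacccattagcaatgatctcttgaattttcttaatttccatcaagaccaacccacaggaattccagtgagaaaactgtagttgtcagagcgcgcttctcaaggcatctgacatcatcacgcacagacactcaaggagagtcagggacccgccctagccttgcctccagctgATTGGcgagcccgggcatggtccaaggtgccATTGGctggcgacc
Elovl6 (chr3:129532136-129532385, plus strand): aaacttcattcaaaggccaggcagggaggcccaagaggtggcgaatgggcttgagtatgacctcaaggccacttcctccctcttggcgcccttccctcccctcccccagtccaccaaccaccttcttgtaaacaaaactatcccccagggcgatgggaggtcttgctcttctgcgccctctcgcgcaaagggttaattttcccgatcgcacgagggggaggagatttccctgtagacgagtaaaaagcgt
Insig1 (chr5:28071162-28071411, plus strand): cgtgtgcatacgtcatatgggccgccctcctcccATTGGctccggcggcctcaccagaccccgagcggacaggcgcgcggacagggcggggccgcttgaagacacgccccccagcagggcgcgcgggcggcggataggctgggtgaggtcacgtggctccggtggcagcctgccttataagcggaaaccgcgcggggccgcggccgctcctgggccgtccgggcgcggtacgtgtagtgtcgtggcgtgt

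**Figure D3:**
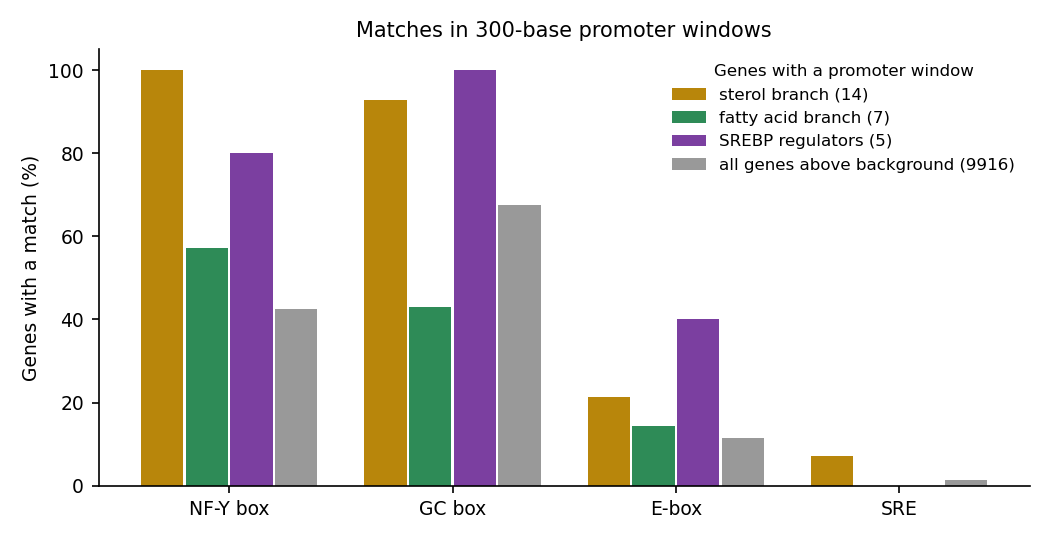
Share of genes (%) with at least 1 match to each of 4 sets of letters in RefSeq promoter windows, for the sterol branch, the fatty acid branch, the SREBP regulators and all genes above background, with the number of genes in brackets. The NF-Y box is found for 14 of 14 sterol genes, against 42.4% of the genes above background.

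In the fatty acid branch Elovl6, Fasn, Acaca and Fads2 transcripts were higher, and those of Acss2 and Elovl5 lower. Elovl6, which extends palmitate to stearate, had 8.54, 8.54 and 9.16 in 48 hpi pools and 7.34, 7.39 and 7.45 in control pools, a change of 1.35 (SE 0.17, limma adjusted p = 0.000572), or 2.55-fold. Fasn, fatty acid synthase, had 8.97, 8.95 and 9.21 in 48 hpi pools and 8.22, 8.25 and 8.25 in control pools, a change of 0.80 (SE 0.10, limma adjusted p = 0.000525). Neither overlapped between the groups, and Elovl6 was highest in replicate 3. Acaca, the carboxylase that makes malonyl-CoA, had 8.14, 8.23 and 8.49 in 48 hpi pools and 7.72, 7.63 and 7.86 in control pools, a change of 0.55 (SE 0.12, limma adjusted p = 0.00653). Fads2, a desaturase of polyunsaturated fatty acids, had 7.17, 7.01 and 7.42 in 48 hpi pools and 6.69, 6.71 and 6.72 in control pools, a change of 0.49 (SE 0.11, limma adjusted p = 0.0107). Its control values lay close together, and its call was lost with the methods' t-test (adjusted p = 0.0546, the highest of a range starting at 0.00189 over the alternatives). The next probe set of Fads2, above background in both groups, had 0.19 (SE 0.13), overlapped between the groups and was not called. Its dimmest, at 0.44 (SE 0.12), was called higher.

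Acss2 and Elovl5 fell. Acss2, which makes acetyl-CoA from acetate in the cytosol and nucleus, had 8.64, 8.74 and 7.93 in 48 hpi pools and 9.42, 9.81 and 9.71 in control pools, a change of −1.21 (SE 0.21, limma adjusted p = 0.00289), or 2.31-fold lower at 48 hpi. Replicate 3 was the lowest of its group, and the next probe set of Acss2 fell by 1.14 (SE 0.19). Elovl5, which elongates polyunsaturated fatty acids, had 10.42, 10.58 and 10.50 in 48 hpi pools and 10.86, 10.94 and 11.02 in control pools, a change of −0.44 (SE 0.09, limma adjusted p = 0.00571). Both of its probe sets were called lower, and the call was lost with equal hybridization controls, a shift of the arrays taken up with the regulators (−0.10). Acly, which makes acetyl-CoA from citrate, was not called at 0.17 (SE 0.09), nor were any of its 6 probe sets. The stearoyl-CoA desaturase genes Scd1 and Scd2 had changes of 0.20 (95% confidence interval −0.39 to 0.79) and 0.14 (−0.10 to 0.37), and Fads1, the other desaturase of polyunsaturated fatty acids, had 0.08 (−0.13 to 0.29). For Scd1 the interval leaves room for a change of either sign, since its control values spread from 5.68 to 6.68. Averaged over the 10 genes in the same way as above, the 48 hpi pools lay at 0.23, 0.20 and 0.21 and the control pools at 0.04, −0.03 and −0.01.

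Of the 5 regulators Insig1, Insig2 and Srebf1 were called lower and Scap higher, and Srebf2 was not called. Insig1, a restraint on Scap and itself a known SREBP target, had 7.96, 7.91 and 8.01 in 48 hpi pools and 8.64, 8.19 and 8.65 in control pools, a change of −0.54 (SE 0.13, limma adjusted p = 0.0136). Insig2, its relative, had 8.23, 8.09 and 8.10 in 48 hpi pools and 8.38, 8.58 and 8.65 in control pools, a change of −0.40 (SE 0.10, limma adjusted p = 0.0157). On these probe sets every 48 hpi value of both genes was below every control value. The next probe set of Insig2 had −0.28 (SE 0.14), overlapped between the groups and was not called. Its dimmest had −0.41 (SE 0.09) and was called lower. Srebf1 had 8.98, 9.11 and 8.88 in 48 hpi pools and 9.44, 9.40 and 9.37 in control pools, a change of −0.41 (SE 0.09, limma adjusted p = 0.00814). Its only probe set was not assigned here to either isoform of the gene. Scap, the escort, rose, with 9.32, 9.22 and 9.46 in 48 hpi pools and 8.96, 8.98 and 8.97 in control pools, a change of 0.36 (SE 0.09, limma adjusted p = 0.0155).

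Some of the regulator calls depended on single arrays or on the scaling. Without control replicate 3 the regulators called higher were 0 and those called lower 1, since Scap (0.36), Insig1 (−0.46) and Insig2 (−0.34) lost their calls with these changes. The call of Insig2 was also lost without control replicate 2 (−0.38) or 48 hpi replicate 2 (−0.37). With a shift of each array that made the hybridization controls equal, which moves the median change of all genes to 0.33, the regulators had a median of −0.06, and 0 of them were called lower (Srebf1 −0.07, Insig1 −0.19, Insig2 −0.06). Relative to the median of all genes, the regulators stood at −0.38, the sterol branch at 0.79 and the fatty acid branch at 0.20. A shift by 1 constant per array cannot alter these relative values.

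Srebf2 gave differing readings on its 2 probe sets, which were of like brightness. The brighter had 7.65, 7.58 and 7.66 in 48 hpi pools and 7.98, 7.58 and 7.78 in control pools, a change of −0.15 (SE 0.11, limma adjusted p = 0.351). The other had 7.89, 7.96 and 8.05 in 48 hpi pools and 7.43, 7.07 and 7.22 in control pools, and it rose by 0.73 (SE 0.11, limma adjusted p = 0.0016 with all probe sets tested), with no overlap between the groups. Their mean was 0.29 higher at 48 hpi (limma adjusted p = 0.0672, the lowest of a range up to 0.756 over the alternatives). Whether Srebf2 transcripts rose cannot be read from these values, and which part of the transcript each probe set reads was not analysed here.

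Over all 77 probe sets, 35 were called higher, 9 lower and 33 not, against 17.7% higher and 15.2% lower among all probe sets. No gene had probe sets called in both directions. For 14 genes the brightest probe set was called and a dimmer one was not, and 64 of the 77 lay above background in a group. Idi1 (1.87 and 1.97), Mvd (0.77 and 1.37), Acss2, Elovl5 and Stard4 were called the same way on each of their probe sets.

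**Figure D4:**
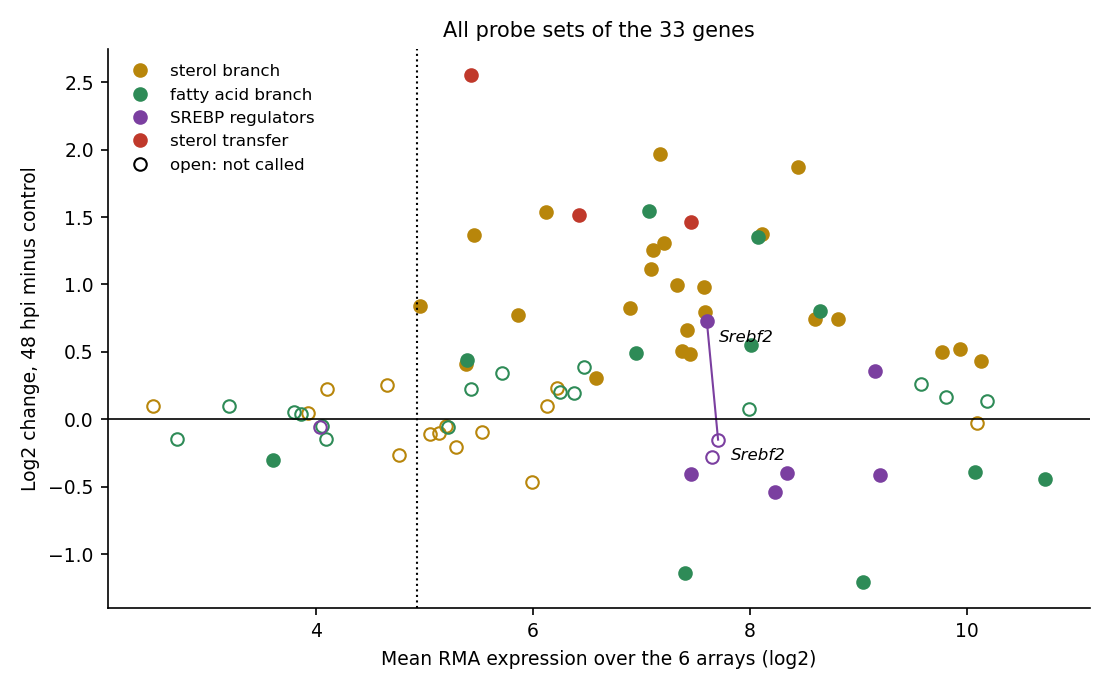
Log2 change, 48 hpi minus control, against mean RMA expression over the 6 arrays (log2) for all 77 probe sets of the 33 genes, filled where called, with the background level as a dotted line. Filled points of the sterol branch lie only above 0, those of the regulators on both sides, and the line joins the 2 probe sets of Srebf2, at −0.15 and 0.73.

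Around the 33 genes, lists of related genes were counted in the same way. Over all genes 19.4% were called higher and 17.5% lower, and among genes above background in a group 27.6% and 23.4%. A list of 10 genes held Nr1h3, which encodes an LXR receptor (a sensor of oxysterols that promotes export), LXR targets and genes of sterol trafficking. Of these 7 were called lower and 0 higher (0 at an unadjusted p below 0.05, and 0 with the methods' t-test after adjustment), and the median change was −0.53. All 10 lay below control without overlap, against 25.1% of all genes. Mylip, an LXR target that degrades lipoprotein receptors, fell by 1.39 (SE 0.18), and Lipa and Npc1, which free cholesterol in lysosomes and export it, by 0.59 (SE 0.09) and 0.57 (SE 0.09). Osbp, a sterol carrier, fell by 0.38 (SE 0.08). With equal hybridization controls 2 of the 10 were lower and the median was −0.18. Of 6 genes listed for SREBP processing and Insig turnover 3 were higher and 0 lower, with or without adjustment. They were Mbtps2, the site-2 protease that frees SREBP (0.57, SE 0.13), Erlin1 (0.81, SE 0.10) and Lmna, which encodes a nuclear lamin (0.74, SE 0.13). Of 8 other isoprenoid genes 3 were higher and 0 lower, again at either threshold, among them Pdss2 of ubiquinone synthesis (0.64, SE 0.11) and Dhdds of dolichol synthesis (0.75, SE 0.16).
Of 22 other genes of fatty acid and glycerolipid synthesis 5 were higher and 5 lower, shares near the 19.4% and 17.5% of all genes. Elovl7, an elongase, and Acsl5, an acyl-CoA synthetase, rose by 0.76 (SE 0.13) and 0.50 (SE 0.09), while Lpin1, a phosphatidate phosphatase, and Gpam, which starts glycerolipid synthesis, fell by 1.25 (SE 0.16) and 0.81 (SE 0.13). Among 14 genes of fatty acid oxidation 1 was higher (Cpt2, 0.52, SE 0.12) and 5 were lower, among them Ppara, a transcription factor that promotes oxidation (−0.57, SE 0.10), and Acadm (−0.72, SE 0.14). With equal hybridization controls the medians of these last 2 lists turned to 0.29 and 0.22, with 6 and 1 genes higher and 1 and 0 lower.

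**Figure D5:**
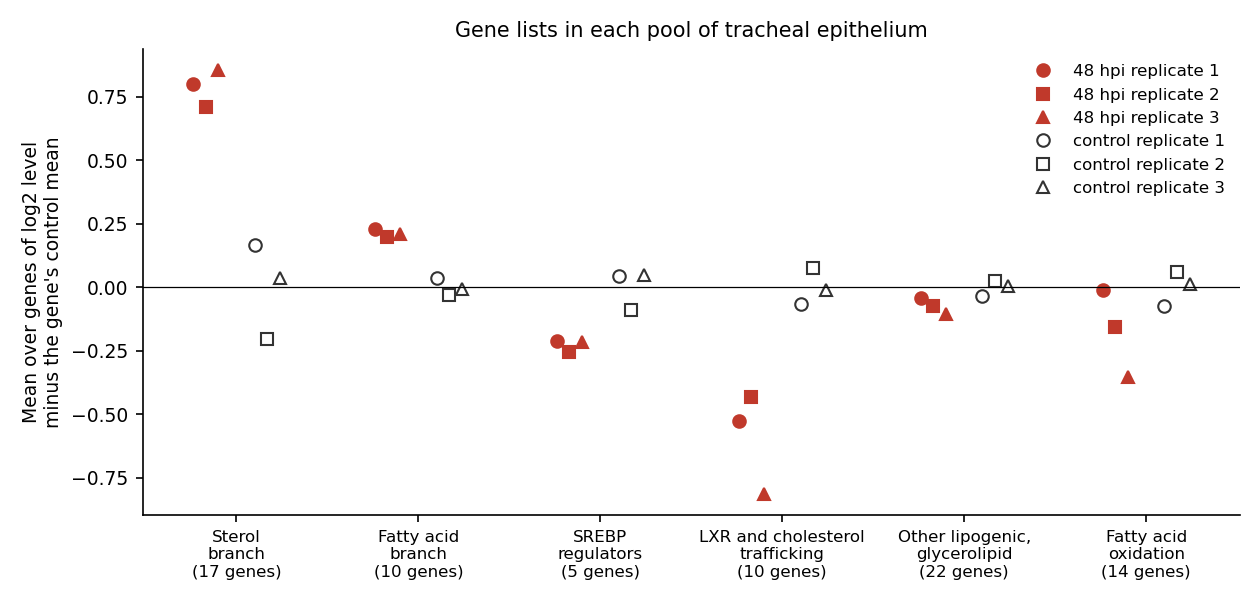
Mean over the genes of a list of the log2 level minus the gene's own control mean, in each 48 hpi pool (filled) and control pool (open). The 48 hpi pools of the sterol branch lie at 0.71 to 0.85 and those of the LXR and cholesterol trafficking list at −0.81 to −0.43, with no overlap with the control pools.

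Levels of proliferation and cell type markers differed between the groups in the same samples, and the make-up of the pools itself was not measured. All 7 measured proliferation markers were higher at 48 hpi, with mean levels from 10.6 to 10.9 in 48 hpi pools and from 7.59 to 7.67 in control pools. Of 9 ciliated cell markers 8 were lower and 0 higher (mean level 5.01 to 5.75 in 48 hpi pools, 6.44 to 7.46 in control pools), and of 8 secretory cell markers 7 were lower and 0 higher (11.02 to 12.02 in 48 hpi pools, 12.66 to 12.77 in control pools). Counts of 0 here are from limma and were also 0 at an unadjusted p below 0.05. Of 6 basal cell markers, all above background in both groups, 2 were higher and 2 lower. In bulk pools, fewer cells of a type and less RNA per cell cannot be told apart. Among 7 genes listed as alveolar type II markers 5 were lower and 1 was higher. Their mean levels ran from 6.54 to 6.72 in 48 hpi pools and from 7.22 to 7.50 in control pools. The pools were tracheal, and these counts do not show that alveolar cells were in them. Sftpc had group means of 4.80 at 48 hpi and 5.90 in control, against background levels of 4.81 and 4.93, whereas Sftpd had 10.83 and 12.84. The part of cell types in the changes of lipid genes was not tested. Of 7 adipocyte markers 1 was lower (Pparg) and 0 were higher (0 at an unadjusted p below 0.05), with mean levels from 4.06 to 4.15 in 48 hpi pools and from 4.10 to 4.18 in control pools, and Adipoq, Cidec, Lep and Ucp1 were not above background in either group. Markers above background in a group numbered 3 of 7 for fibroblasts, 3 of 6 for cartilage, 4 of 10 for leukocytes and 1 of 5 for endothelium. Called lower were 1 fibroblast (Dcn), 1 cartilage (Chad) and 2 leukocyte markers (Lyz2 and Csf1r). No marker of these lists was called higher (1 fibroblast and 1 leukocyte marker higher at an unadjusted p below 0.05). Dcn, Chad, Lyz2 and Csf1r had control means of 10.32, 11.68, 13.77 and 6.65, while most fibroblast and leukocyte markers were not above background in either group. These falls alone do not show that cells of those types were in the pools.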

How the data were processed

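RNA of 3 pools of 48 hpi and 3 pools of control tracheal epithelium was measured on Affymetrix mouse arrays. The deposited values are log2 expression, normalized by the authors with robust multi-chip analysis (RMA). Partek 6.5 and Affymetrix Expression Console 1.1 are named in the submitters' processing notes, and which of them wrote the values is not given in the sources used here. Mesenchymal arrays were not analysed here.

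Of 45101 probe sets, 34958 had 1 gene symbol in the array annotation, 932 several and 9211 none. Control probe sets (64) and a probe set naming Acss2 beside another gene were left out. By Entrez ID, 34741 of the 34945 used matched RefSeq genes of GRCm38.p6 and 0 changed symbol. Each of 18193 genes was represented by its brightest probe set, judged by the mean of all 6 arrays. Groups follow the labels, which call the pools biological replicates. They were compared with lmFit and eBayes of limma 3.58.1 (R 4.3.3), with no block, Benjamini-Hochberg adjustment over all genes and a threshold of 0.05, after the script had been tested on simulated data. With 3 pools in each group, the smallest two-sided p of an exact permutation test on 1 gene is 0.1. The members, the lists around them and the letters searched in promoters were chosen with earlier results of these data known. In the lists around the members, at most the 4 called genes with the smallest p are named.

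Alternatives were repeated quantile normalization, array shifts (common median, equal hybridization controls), leaving out dim probe sets, other rules for choosing the probe set, a mean-variance trend, robust estimates, array weights, the methods' t-test, the replicate number as a block, a stricter threshold and leaving out each array in turn. Figures were made in Python 3.11.15 (matplotlib 3.10.9).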

Additional observations from a re-analysis of the deposited data

How the results depend on the processing

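Of the 26 genes called, 14 kept their direction and call under all 19 alternatives, 9 of them sterol genes, and none of the 7 others was called under any of them. Sterol genes called higher numbered 11 to 15 and those called lower 0 throughout, and fatty acid genes called higher 3 or 4. With equal hybridization controls 1 fatty acid gene and 0 regulators were lower, and over all genes 837 were lower, against 3191 as reported, and 4409 higher, against 3527. With the methods' t-test 1920 genes and 1 regulator were lower, and at an adjusted p below 0.01 1802 genes and 1 regulator were lower. Regulators called higher fell to 0 with repeated quantile normalization, with the mean of probe sets and at an adjusted p below 0.01. Leaving out 1 array at a time gave 0 to 1 regulators higher and 1 to 3 lower, the lowest of both without control replicate 3. The cause was not tested.

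Signs turned for Lss without x and s probe sets (−0.098, where another probe set stands for the gene), for Srebf2 with equal hybridization controls (0.193) and the mean of probe sets (0.289, which adds the other probe set), and for Fads1 with repeated quantile normalization (−0.033), none of them called there. Ebp turned with a common median (0.057), equal hybridization controls (0.319), array weights (0.035) and without control replicate 1 (0.002) or 48 hpi replicate 3 (0.085). Leaving out 1 array at a time gave −0.119 to 0.085 for Ebp and −0.033 (without control replicate 3) to 0.469 for Scd1.

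With the replicate number as a block, 15 sterol genes were higher, as were 3430 of all genes, with 3156 lower, and no call of the 33 genes changed. Deviations from the group means correlated at 0.097 to 0.127 between pools of the same number and at −0.121 to −0.006 between others, and each of the 6 pools correlated best with its own number, a hint from the data and not from the design, so the main comparison was left without the replicate block. The number of arrays and, for dim probe sets, the distance to background limit what can be read.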
